A study of Saccharomyces cerevisiae with 41 samples.

Results

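The small nucleolar RNAs (snoRNAs) snR72, snR73, snR74, snR75, snR76, snR77 and snR78 of budding yeast, Saccharomyces cerevisiae, lie in a row on chromosome XIII and are cut from 1 shared precursor RNA. They were taken by name from the 3 deposited tables of estimated read counts, which hold the same features, and make up 7 of the 11587 features. All 7 were present in all 3 tables. The rule used names only.

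Box C/D snoRNAs are short nuclear RNAs that pair with ribosomal RNA and, with the proteins Nop1, Nop56, Nop58 and Snu13, place a methyl group on the ribose of a chosen base. The name comes from 2 conserved motifs, box C near the 5′ end and box D near the 3′ end. In yeast most snoRNAs have a promoter of their own, some lie in introns, and some are transcribed together on a polycistronic precursor. The endonuclease Rnt1 cuts such a precursor between the snoRNAs, the exonucleases Rat1 and Xrn1 trim the 5′ ends, and the nuclear exosome, a complex of 3′ to 5′ nucleases, trims the 3′ ends. The TRAMP complex can add a short poly(A) tail to exosome substrates, so a snoRNA precursor that is not trimmed can carry a tail that oligo d(T) captures.

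The study compared a control strain with strains carrying csl4-ph (an allele of CSL4, which encodes a cap subunit of the exosome), enp1-1 (ENP1, a factor needed to build the small ribosomal subunit), srm1-ts (SRM1, which encodes the nucleotide exchange factor for the Ran-type GTPase of nuclear transport), dis3-1 (DIS3, the catalytic exosome subunit) and a deletion of RRP6 (the nucleus-restricted exosome nuclease). All cultures were vegetative cells labelled BY4741, grown at 25 °C and held at 37 °C for 90 min, so the control carried the same heat shift as the mutants. RNA was enriched on oligo d(T) (control n = 3, csl4-ph n = 3, enp1-1 n = 2, srm1-ts n = 2) or depleted of ribosomal RNA (control n = 2, csl4-ph n = 3, enp1-1, srm1-ts, dis3-1 and rrp6 deletion n = 2 each). The 3′ tag libraries held control, csl4-ph and enp1-1 cells with an empty vector or a Pab1GFP vector (n = 3 for each of the 6 groups). The labels do not give the number of clones of a strain or whether libraries came from separate cultures, so p-values measure only the spread between these libraries, which may be technical.

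The sequences below are shown because each snoRNA is its own guide, and because the 7 behaved differently in spite of the shared precursor. They are the plus strand of the genome (build R64, RefSeq), 5′ to 3′, in the order of the precursor. Capitals mark each match to TGATGA, the core of box C, and each match to CTGA, the core of box D.
snR78: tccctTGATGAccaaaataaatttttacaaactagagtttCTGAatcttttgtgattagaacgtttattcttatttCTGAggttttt
snR77: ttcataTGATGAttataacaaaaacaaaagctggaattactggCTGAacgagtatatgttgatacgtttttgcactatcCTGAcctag
snR76: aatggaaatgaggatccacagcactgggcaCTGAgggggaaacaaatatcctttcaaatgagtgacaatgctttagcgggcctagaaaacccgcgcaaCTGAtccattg
snR75: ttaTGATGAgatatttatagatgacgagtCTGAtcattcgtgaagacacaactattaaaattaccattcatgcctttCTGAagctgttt
snR74: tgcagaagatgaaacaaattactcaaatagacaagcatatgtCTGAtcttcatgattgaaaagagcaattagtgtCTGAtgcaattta
snR73: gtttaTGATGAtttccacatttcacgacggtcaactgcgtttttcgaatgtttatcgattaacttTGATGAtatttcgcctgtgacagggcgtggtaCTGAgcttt
snR72: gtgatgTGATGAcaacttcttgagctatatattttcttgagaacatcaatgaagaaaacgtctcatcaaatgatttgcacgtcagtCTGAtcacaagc

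All 7 snoRNAs held CTGA, and 5 of the 7 held TGATGA, which was searched on the given strand only. The 2 without the exact letters were snR76 and snR74, and snR73 held the letters at 2 places. Among the 40 other box C/D snoRNAs of the files, 87.5% held TGATGA and 100% held CTGA. Among the 29 box H/ACA snoRNAs, the class that guides pseudouridylation, the shares were 10.3% and 55.2%. A match is a description of letters in the window, and no match says only that these letters are not there.

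The rRNA bases that RefSeq gives as targets lie opposite short runs in these sequences. In snR74 the run agacaagcatatg (13 bases) ends 1 base before a CTGA and pairs across adenosine 28 of 18S rRNA, and in snR77 the run agctggaattac (12 bases) ends 3 bases before a CTGA and pairs across uridine 578 of 18S. The other 5 guides are directed to 25S rRNA. In snR72 the run gatttgcacgtcag (14 bases) ends 1 base before a CTGA and covers adenosine 876. The run of 11 bases in snR76, agcactgggca, ends directly at a CTGA and covers cytidine 2197. The run tagatgacgag (11 bases) in snR75 covers guanosine 2288, and caaactagagt (11 bases) in snR78 covers uridine 2421. In these 6 snoRNAs the rRNA base opposite the fifth base before the CTGA was the RefSeq target. In snR73 the run across cytidine 2959, tcacgacggtc (11 bases, positions 22 to 32 counted from the 5′ end), lies 65 bases before the next CTGA, so this spacing was not found there.

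On chromosome XIII of R64 the row begins with snR78 (297278 to 297364, 87 bases). It continues with snR77 (297506 to 297593), snR76 (297725 to 297833), snR75 (297918 to 298006), snR74 (298138 to 298225) and snR73 (298307 to 298412), and ends with snR72 (298554 to 298651). The span covers 1374 bases, of which 665 belong to the snoRNAs and 709 to 6 spacers of 81 to 141 bases. RefSeq annotates each as an exon of a non-coding snoRNA gene. No feature of the files covers the spacers, so the uncut precursor was not measured, and counts on a snoRNA do not separate the mature RNA from an extended or tailed form. Of the 7, snR73 overlaps another feature, the open reading frame YMR013W-A (298311 to 298391), which held 0 counts in every group but the rrp6 deletion (mean 0.1675 CPM, the count scaled to a common library size). The other 6 overlap no feature of the files.

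Recovery of RNAs of 87 to 109 bases by the column kit and the library kit was not measured. Estimated counts summed to between 15589670 and 33251600 per oligo d(T) library, between 12795066 and 32142495 per ribo-depleted library and between 1458382 and 3027707 per tag library. A count of 0 allows up to 3 counts, which is 0.0847 to 0.264 CPM per oligo d(T) library and 0.0866 to 0.313 CPM per ribo-depleted library. Intervals and floors given here cover counting error only.

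In the rrp6 deletion libraries RRP6 stood at 39.04 ± 1.27 CPM (SD, n = 2) against 184.7 ± 7.06 CPM (SD, n = 2) in control, reduced but not absent. The other strains carry alleles rather than deletions, so the levels of their mutated genes do not check the labels. One of the 3 ribo-depleted csl4-ph libraries, replicate 1, has a title that says ribosomal depletion and a description that says polyA. Member tests and the other values that rest on it are given with and without it. Genes that mark strain background differed between groups that share 1 background label. LYS2, for lysine synthesis, stood at 0.5413 CPM in ribo-depleted control and 0 in csl4-ph but at 395.4 to 681.6 CPM in the other 4 strains. STE2, the alpha-factor receptor of MATa cells, stood at 7.374 CPM in control and 352.3 CPM in dis3-1. Control and csl4-ph differed in other marker genes. MET17 stood at 538.9 CPM in control, 91.17 CPM in csl4-ph and 0 to 0.7231 CPM in the other 4 strains. MF(ALPHA)1 stood at 679.9 CPM in control, 224.9 CPM in csl4-ph and 0.3566 to 5.357 CPM in the other 4. An effect of an allele and an effect of strain background therefore cannot be told apart in any comparison here, those between mutants included, since csl4-ph shares the LYS2 state of control and not that of the other 4 strains. In these bulk samples fewer cells with an RNA and less RNA per cell cannot be told apart either.

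In ribo-depleted control RNA the 7 products of 1 precursor did not stand at 1 level. Per kilobase of feature, snR76 stood highest at 97.72 ± 2.62 CPM per kb, followed by snR73 at 58.64 ± 7.68, snR77 at 42.74 ± 15.1, snR75 at 28.97 ± 1.12, snR74 at 18.67 ± 7.93, snR72 at 11.24 ± 3.83 and snR78 at 3.056 ± 2.62 (means with SD, n = 2). The control libraries of snR73 and snR77 overlapped on this scale, as did those of snR74 and snR72. The other neighbours in this order did not overlap. The order did not follow the position on the precursor, since snR78, the first, and snR72, the last, were the lowest. In oligo d(T) control RNA snR76 again stood highest at 26.01 ± 3.69 CPM per kb, and snR74 stood lowest at 0.5919 ± 0.516 CPM per kb from 2 counts in all (SD, n = 3).

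Summed over the 7, ribo-depleted RNA held 26.22 ± 2.2 CPM in control (SD, n = 2), 27.91 ± 1.62 in csl4-ph (n = 3), 31.19 ± 0.237 in srm1-ts, 42.48 ± 0.43 in enp1-1, 60.9 ± 3.89 in dis3-1 and 255.7 ± 16.1 in the rrp6 deletion (n = 2 each). Without csl4-ph replicate 1 its sum was 27.16 ± 1.37 CPM (n = 2). On this scaling the control and csl4-ph libraries overlapped, and the other 4 strains lay above control. Scaling on open reading frames moved the median of all features in csl4-ph against control up by 0.442 on the log2 scale. Sums on that scaling were not computed. Oligo d(T) RNA gave another order. The sum was 0.7353 ± 0.000564 CPM in srm1-ts (n = 2), 4.999 ± 0.907 in control (n = 3), 15.03 ± 2.4 in csl4-ph (n = 3) and 41.05 ± 1.75 in enp1-1 (n = 2), and no 2 groups overlapped.

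**Figure D1:**
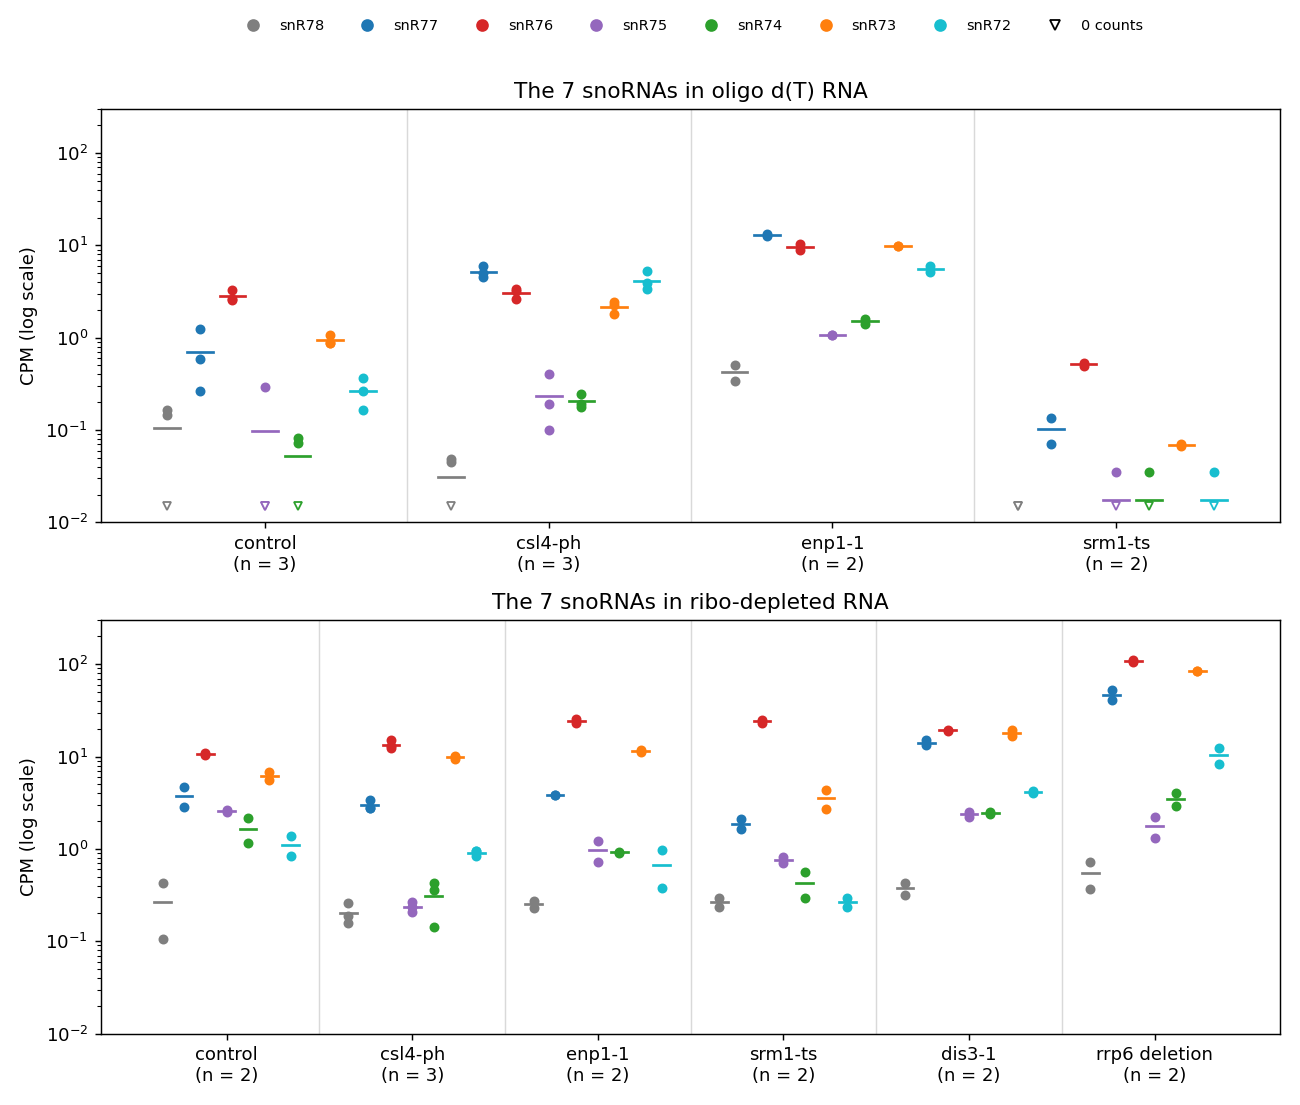
Level of each of the 7 snoRNAs in every library, in CPM on a log axis, by strain, in oligo d(T) RNA (top) and ribo-depleted RNA (bottom). Points are libraries, bars are group means, and open triangles are libraries with 0 counts. In ribo-depleted RNA snR77, snR76, snR74, snR73 and snR72 stand highest in the rrp6 deletion, while snR75 does not. In oligo d(T) RNA most members stand highest in enp1-1 and lowest in srm1-ts.

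The rrp6 deletion held the most RNA from the row. In ribo-depleted RNA 4 of the 7 rose, by 9.3 to 13.7 times, and the 2 in the middle of the row, snR75 and snR74, did not pass the test. Of all 10564 features tested, 30.5% were higher and 35.6% lower in this comparison. snR78 had too few counts to be tested in either selection (6 to 18 counts per strain in ribo-depleted RNA), so 6 of the 7 were tested. The test here and below was edgeR's quasi-likelihood test with Benjamini-Hochberg adjustment over all features tested, at an adjusted p under 0.05.

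The guide for cytidine 2959 of 25S, snR73, stood at 5.64 and 6.792 CPM in control and at 84.5 and 85.4 CPM in the rrp6 deletion. This is a 13.7-fold rise (log2 fold change 3.78 ± 0.204 SE, adjusted p = 2.21e-07), and YMR013W-A, which shares its place, held the trace given above. For snR77, directed to 18S, the control libraries held 4.7 and 2.821 CPM and the deletion libraries 41.25 and 52.74 CPM (log2 fold change 3.63 ± 0.258, adjusted p = 1.41e-06). snR76 rose from 10.85 and 10.45 CPM to 105.3 and 110 CPM (3.34 ± 0.0992, adjusted p = 4.69e-09). The last member of the row, snR72, rose from 1.367 and 0.8359 CPM to 8.358 and 12.32 CPM (3.22 ± 0.481, adjusted p = 0.000247). In each of these 4 the deletion libraries lay far above both control libraries.

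The neighbouring snR75 and snR74 gave no call and differed in direction. snR75, the guide for guanosine 2288 of 25S, stood at 2.649 and 2.508 CPM in control and at 1.313 and 2.218 CPM in the deletion, so both deletion libraries lay below both controls (log2 fold change -0.55 ± 0.426, adjusted p = 0.29). snR74, the guide for adenosine 28 of 18S, stood at 2.136 and 1.149 CPM in control and at 2.925 and 4.005 CPM in the deletion. Both deletion libraries of snR74 thus lay above both controls (1.07 ± 0.564, adjusted p = 0.124). Neither difference passed the test. snR78 stood at 0.4273 and 0.1045 CPM in control and at 0.7164 and 0.3697 CPM in the deletion, and these groups overlapped.

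In dis3-1, the strain with an allele of the catalytic subunit, the same 4 members stood above control by smaller factors. Of the 7, 4 rose and none fell by the test, against 30% of all features higher and 38.8% lower. snR77 stood at 15.2 and 13.19 CPM in dis3-1 (log2 fold change against control 1.91 ± 0.247, adjusted p = 8.2e-05). snR73 stood at 19.35 and 16.78 CPM (1.54 ± 0.196, adjusted p = 7.23e-05), snR72 at 4.229 and 4.034 CPM (1.90 ± 0.463, adjusted p = 0.00492) and snR76 at 19.57 and 19.08 CPM (0.86 ± 0.0989, adjusted p = 3.62e-05). All dis3-1 libraries of these 4 lay above control. snR75, at 2.509 and 2.241 CPM, and snR74, at 2.365 and 2.497 CPM, did not pass the test (adjusted p = 0.844 and 0.407).

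In csl4-ph single members of the row differed in direction. In ribo-depleted RNA 2 of the 7 rose and 2 fell, where 35.4% of all features were higher and 41.1% lower. These counts lie near the shares over all features, so they are no result about the row. The 2 that fell were snR75 and snR74. snR75 went from 2.649 and 2.508 CPM in control to 0.2375, 0.2659 and 0.2071 CPM in csl4-ph, a 10.6-fold fall (log2 fold change -3.41 ± 0.41, adjusted p = 3.8e-05). snR74 went from 2.136 and 1.149 CPM to 0.1425, 0.4255 and 0.3623 CPM (-2.39 ± 0.529, adjusted p = 0.00237). The 3 csl4-ph libraries of both lay below both control libraries.

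The members that rose in csl4-ph did so by at most 1.58 times in the main fit. Over the other settings the log2 fold change ran from 0.53 to 1.15 for snR73 and from 0.25 to 0.83 for snR76. snR73 stood at 10.12, 9.892 and 9.369 CPM, all above control (log2 fold change 0.66 ± 0.182, adjusted p = 0.00844). snR76 stood at 14.96, 13.03 and 12.37 CPM, also all above control (0.34 ± 0.0919, adjusted p = 0.00783). snR77 (2.802, 3.404 and 2.795 CPM) and snR72 (0.95, 0.9573 and 0.8282 CPM) overlapped control and did not pass the test (-0.33, adjusted p = 0.206, and -0.28, adjusted p = 0.57). Scaling on open reading frames turned these values to 0.16 and 0.21. The call for snR73 was lost without control replicate 1 (0.53, adjusted p = 0.0772), and snR77 passed without control replicate 2 (-0.65, adjusted p = 0.0228). Without csl4-ph replicate 1, the library with disagreeing labels, the same 4 calls were made (snR75 -3.41, snR74 -2.05, snR73 0.64, snR76 0.25).

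**Figure D2:**
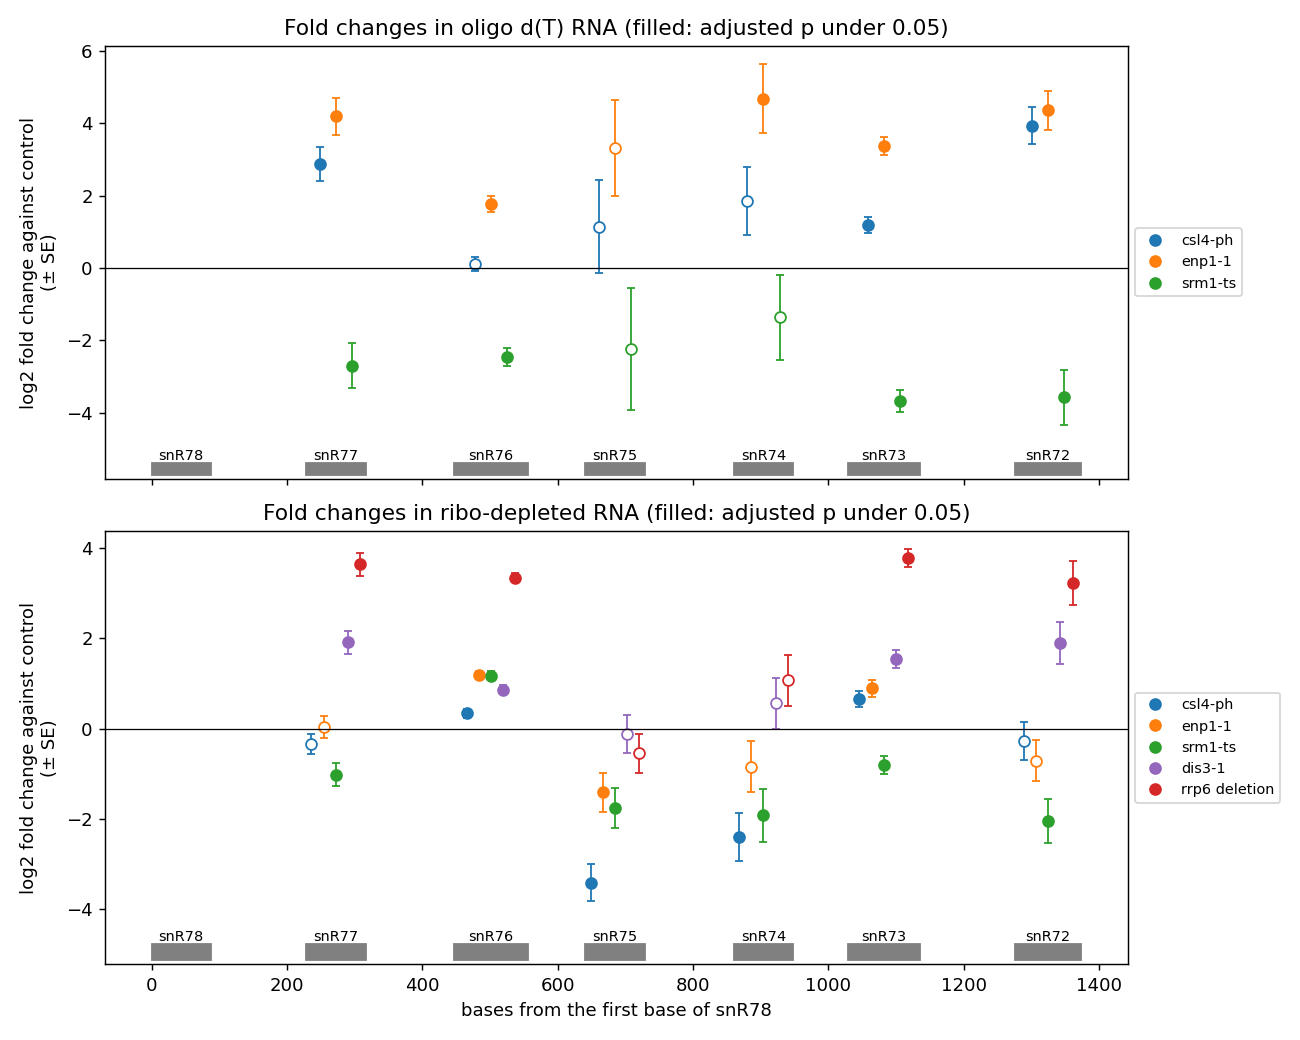
Log2 fold change against control with its SE for each tested member, placed at its distance in bases from the start of snR78 (grey boxes are the snoRNAs), in oligo d(T) RNA (top) and ribo-depleted RNA (bottom). Filled points passed an adjusted p under 0.05. In ribo-depleted RNA snR75 and snR74, in the middle of the row, lie below snR76 and snR73, the members on either side, in all 5 mutants.

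The 3 exosome alleles were also compared with each other. All 6 tested members were lower in csl4-ph than in dis3-1, where 29.3% of all features were lower and 26.9% higher. The log2 differences ran from -0.52 ± 0.0842 for snR76 to -3.29 ± 0.408 for snR75 (adjusted p between 1.81e-05 and 0.00142). All 6 were also lower in csl4-ph than in the rrp6 deletion, from -2.87 ± 0.405 for snR75 to -3.97 ± 0.22 for snR77 (33.3% of all features lower, 32.9% higher). Without csl4-ph replicate 1 all 6 stayed lower in both comparisons. Between dis3-1 and the rrp6 deletion 4 of the 7 were lower in dis3-1 (26.1% of all features lower, 21.4% higher), with log2 differences of -2.48 ± 0.0923 for snR76, -2.23 ± 0.185 for snR73, -1.73 ± 0.234 for snR77 and -1.32 ± 0.441 for snR72. The snR72 call (adjusted p = 0.0341) was lost without either dis3-1 library or without rrp6 deletion replicate 2 (adjusted p 0.116 to 0.2). snR75 and snR74 did not differ by the test between dis3-1 and the deletion (0.43, adjusted p = 0.471, and -0.51, adjusted p = 0.513).

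The comparisons with control share the same control libraries, so values of different strains are given side by side. In enp1-1, the allele of the small-subunit factor, 2 of the 7 rose and 1 fell in ribo-depleted RNA (34.8% and 37% of all features). snR76 stood at 25.4 and 23.18 CPM (log2 fold change 1.19 ± 0.0964, adjusted p = 2.55e-06) and snR73 at 11.26 and 11.76 CPM (0.89 ± 0.193, adjusted p = 0.00233), both above all control libraries. snR75 fell to 0.7217 and 1.217 CPM (-1.41 ± 0.432, adjusted p = 0.0153), a call lost without control replicate 1 (adjusted p = 0.0572) or enp1-1 replicate 1 (0.114) and when these 2 groups were fitted alone (0.0555). snR77 at 3.868 and 3.852 CPM and snR72 at 0.3753 and 0.98 CPM overlapped control. snR72 passed as lower without enp1-1 replicate 2 (-1.54, adjusted p = 0.0141). snR74 stood at 0.9237 and 0.9124 CPM, below both controls, and did not pass (adjusted p = 0.21).

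In srm1-ts, the allele of the Ran exchange factor, 5 of the 7 fell and 1 rose (37% and 39.4% of all features). The member that rose was snR76, the guide for cytidine 2197 of 25S, at 24.96 and 23.18 CPM (log2 fold change 1.17 ± 0.0965, adjusted p = 2.31e-06). The largest fall of the tested members was that of snR72, to 0.233 and 0.2955 CPM (-2.04 ± 0.484, adjusted p = 0.00363). snR74 fell to 0.5659 and 0.2955 CPM (-1.92 ± 0.584, adjusted p = 0.0138) and snR75 to 0.699 and 0.8209 CPM (-1.75 ± 0.437, adjusted p = 0.00477). snR77 fell to 1.631 and 2.101 CPM (-1.02 ± 0.25, adjusted p = 0.00448) and snR73 to 2.696 and 4.367 CPM (-0.81 ± 0.201, adjusted p = 0.00473). The 5 that fell lay below both control libraries in both srm1-ts libraries. Without control replicate 1 the snR77 and snR74 calls were lost (-0.59, adjusted p = 0.0879, and -1.40, adjusted p = 0.0984), and without srm1-ts replicate 2 that of snR74 (adjusted p = 0.13). The snR73 call was lost with scaling on open reading frames (-0.48, adjusted p = 0.0538), and those of snR73 and snR77 when the 2 groups were fitted alone (adjusted p = 0.0775 and 0.0686).

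Oligo d(T) RNA holds what carries a poly(A) tail or a run of adenosines. In csl4-ph 3 of the 7 rose there and none fell by the test (38.2% and 39.6% of all features). snR72 stood at 0.3663, 0.166 and 0.264 CPM in control and at 5.213, 3.331 and 3.914 CPM in csl4-ph, a 15.2-fold rise (log2 fold change 3.93 ± 0.515, adjusted p = 0.000137). snR77 rose from 0.586, 1.245 and 0.264 CPM to 5.932, 4.524 and 5.074 CPM (2.88 ± 0.475, adjusted p = 0.000572). snR73 rose from 0.8791, 1.079 and 0.8801 CPM to 2.427, 1.79 and 2.271 CPM (1.19 ± 0.219, adjusted p = 0.00111). In all 3 the csl4-ph libraries lay above every control library. snR72 and snR77 had too few counts in control and srm1-ts to pass the filter on low counts. They were tested through csl4-ph and enp1-1, where they are high.

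snR76, which had the highest control level, showed no such rise, at 3.296, 2.656 and 2.552 CPM in control and 3.235, 2.635 and 3.334 CPM in csl4-ph (log2 fold change 0.11 ± 0.197, adjusted p = 0.619). snR75 and snR74 had few counts in oligo d(T) control RNA (4 and 2 in all) and did not pass in csl4-ph (15 and 13 counts, adjusted p = 0.436 and 0.1). For snR74 the ratio of csl4-ph to control was 3.82 with a 95% exact interval of 0.865 to 34.9. The 4 control counts of snR75 all lay in replicate 1, and without that library snR75 passed as higher (5.50, adjusted p = 0.0326), a fitted value against control libraries at 0. snR78 held 2 counts in csl4-ph against 4 in control (ratio 0.294, interval 0.0266 to 2.05).

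In enp1-1 5 of the 7 rose in oligo d(T) RNA and none fell (37.8% and 38.6% of all features). snR77 reached 12.56 and 13.32 CPM (log2 fold change 4.20 ± 0.514, adjusted p = 8.95e-05) and snR72 5.167 and 6.041 CPM (4.36 ± 0.541, adjusted p = 9.81e-05). snR73 reached 9.91 and 9.766 CPM (3.37 ± 0.242, adjusted p = 2.77e-06) and snR76 8.978 and 10.34 CPM (1.77 ± 0.215, adjusted p = 8.65e-05). snR74 reached 1.609 and 1.409 CPM from 2 control counts, a ratio of 28.1 with an interval of 7.58 to 236 (adjusted p = 0.00208). For all 6 tested members every enp1-1 library lay above every control library, as for 42.9% of all features. snR74 and snR75 held under 10 counts in every library outside enp1-1, and passed the filter on low counts only through enp1-1. snR77 and snR72 passed it only through csl4-ph and enp1-1. The counts of members higher are thus partly set by the filter, while snR76 and snR73 passed it through control too. snR75 stood at 1.073 and 1.074 CPM and missed the threshold (3.32 ± 1.34, adjusted p = 0.0502). It passed under 3 other settings, scaling by median ratio (adjusted p = 0.0488) or on open reading frames (0.0374) and DESeq2 (0.0419), and without control replicate 1 (0.00759). snR78, not tested, held 28 counts in enp1-1, and stood at 0.5082 and 0.3356 CPM against 0.1465, 0.166 and 0 CPM in control.

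In srm1-ts the row was scarce in oligo d(T) RNA, with 43 counts over the 7 members and 2 libraries. Of the 7, 4 fell and none rose (37.7% and 39.3% of all features). With control and srm1-ts fitted alone only 2 members, snR76 and snR73, passed the filter on low counts, and both were called lower. The other tested members entered through csl4-ph or enp1-1, where they are high. snR73 stood at 0.06999 and 0.06689 CPM (log2 fold change -3.68 ± 0.308, adjusted p = 6.52e-06), snR76 at 0.49 and 0.5351 CPM (-2.46 ± 0.246, adjusted p = 2.19e-05) and snR77 at 0.06999 and 0.1338 CPM (-2.71 ± 0.624, adjusted p = 0.0039). All 3 lay below every control library. snR73 and snR77 rest on 4 and 6 counts in srm1-ts, against 35 and 26 in control, so their fold changes are imprecise. The snR73 values lie below the 0.1 and 0.105 CPM that a count of 0 allows in these libraries. snR72 held 1 count against 10 in control, a control to srm1-ts ratio of 15.8 with an interval of 2.24 to 685 (adjusted p = 0.00239). snR75 and snR74, with 1 count each, did not pass (adjusted p = 0.253 and 0.37). snR78 held 0 counts against 4 in control, 2.1-fold lower when 3 counts over the group are taken for the 0. This takes the 4 control counts as exact, so it is no bound.

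Set against each other in oligo d(T) RNA, 4 of the 7 were lower in csl4-ph than in enp1-1 (26.7% of all features lower, 26.6% higher). snR73 differed by -2.18 ± 0.23 on the log2 scale (adjusted p = 8.62e-05), snR76 by -1.65 ± 0.213 (adjusted p = 0.000274), snR74 by -2.83 ± 0.817 (adjusted p = 0.0188) and snR77 by -1.32 ± 0.461 (adjusted p = 0.0407). The snR77 call was lost when any csl4-ph or enp1-1 library was left out (-1.23 to -1.43, adjusted p 0.0612 to 0.154). The snR74 call was lost without csl4-ph replicate 3 (adjusted p = 0.0509) or without either enp1-1 library (0.106 and 0.138). snR74 passed the filter on low counts only through enp1-1, where it is high. snR72 overlapped between the strains and did not differ by the test (-0.43, adjusted p = 0.484). Against srm1-ts 5 of the 7 were higher in csl4-ph (38.6% of all features higher, 37% lower), among them snR72 with 264 counts against 1 (ratio 245, interval 43.6 to 9710), snR77 (log2 difference 5.59 ± 0.654, adjusted p = 6.88e-05) and snR73 (4.87 ± 0.315, adjusted p = 1.41e-06). In srm1-ts snR77 and snR73 held 6 and 4 counts. snR72 and snR77 passed the filter on low counts only through csl4-ph and enp1-1, where they are high. The count of 5 against srm1-ts is thus partly set by the filter. The snR74 call in that comparison (13 counts against 1, adjusted p = 0.0241) was lost without srm1-ts replicate 2 (adjusted p = 0.167).

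Whether a strain changed a member more in oligo d(T) RNA than in ribo-depleted RNA was tested as an interaction in 1 fit over both selections, in which snR78 could be tested too. For csl4-ph 4 of the 7 had a higher fold change in oligo d(T) RNA (27.7% of all 10790 features, with 27.1% lower). They were snR75 (log2 difference 4.54 ± 1.29, adjusted p = 0.00745), snR74 (4.23 ± 0.998, adjusted p = 0.00201), snR72 (4.19 ± 0.656, adjusted p = 5.37e-05) and snR77 (3.19 ± 0.497, adjusted p = 5.15e-05). snR75 and snR74 did not pass the test as higher in oligo d(T) csl4-ph RNA, and fell in ribo-depleted RNA (-3.41 and -2.39). In oligo d(T) control RNA they held 4 and 2 counts in all, those of snR75 all in replicate 1. snR73, snR76 and snR78 did not pass (0.52, -0.24 and -1.19, adjusted p = 0.136, 0.317 and 0.516). Without the csl4-ph library with disagreeing labels the same 4 passed, at 4.54, 3.88, 4.22 and 3.15.

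For enp1-1 6 of the 7 had the higher fold change in oligo d(T) RNA (22.8% of all features, with 30.2% lower). The difference was 5.50 ± 1.06 for snR74, 5.05 ± 0.727 for snR72, 4.70 ± 1.37 for snR75, 4.15 ± 0.546 for snR77, 2.46 ± 0.262 for snR73 and 0.56 ± 0.179 for snR76 (adjusted p between 1.11e-06 and 0.016). Those of snR75 and snR74 rest on the same few oligo d(T) control counts as in csl4-ph. The snR76 call was lost without enp1-1 replicate 2 of either selection (adjusted p 0.0611 and 0.0764) and when the compared groups were fitted alone (0.0966). For srm1-ts 4 of the 7 went the other way (27.7% of all features lower, 22.5% higher). snR76 differed most firmly, by -3.69 ± 0.204 (adjusted p = 4.32e-10), since it rose in ribo-depleted RNA and fell in oligo d(T) RNA. snR73 differed by -2.92 ± 0.351 (adjusted p = 5.37e-06), with 4 counts in oligo d(T) srm1-ts RNA. The snR77 call (-1.75, adjusted p = 0.0298) was lost without oligo d(T) control replicate 2, oligo d(T) srm1-ts replicate 1, ribo-depleted srm1-ts replicate 2 or ribo-depleted control replicate 2 (-1.07 to -1.64, adjusted p 0.0666 to 0.215), and when the compared groups were fitted alone (adjusted p = 0.2). That of snR78 (adjusted p = 0.0407) rests on 0 counts in oligo d(T) srm1-ts and was lost by DESeq2 (adjusted p = 0.0768) and without any one of 7 libraries (0.0643 to 0.12).

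**Figure D3:**
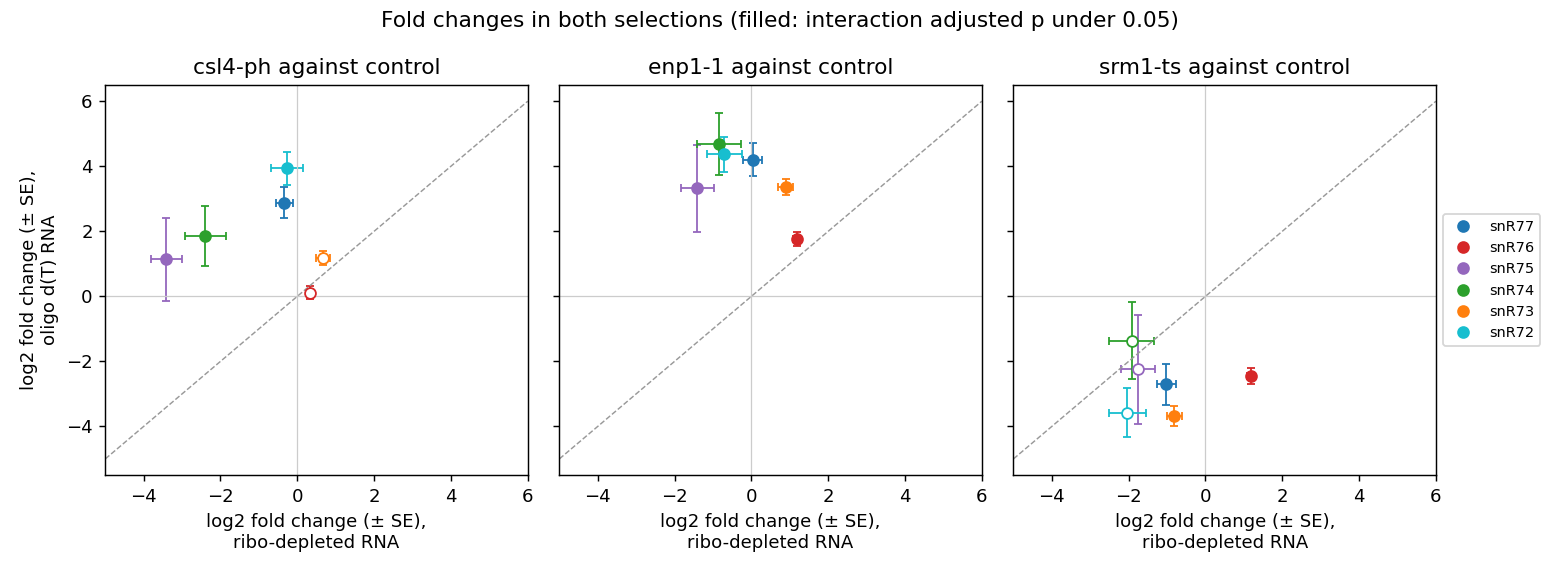
Log2 fold change against control with its SE in oligo d(T) RNA (vertical axis) against that in ribo-depleted RNA (horizontal axis) for the 6 members tested in both, for csl4-ph, enp1-1 and srm1-ts. Points are members, the dashed line marks equal change, and filled points passed the interaction test. In csl4-ph and enp1-1 most members lie above the line, and in srm1-ts snR76 lies below it by 3.69.

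The make-up of the row differed between strains, also in ribo-depleted csl4-ph RNA, where the sum overlapped control. In ribo-depleted control RNA snR76 took 40.8% ± 2.33 of the counts of the 7 (SD, n = 2), snR73 23.9%, snR77 14.2%, snR75 9.87% ± 0.467, snR74 6.18% and snR72 4.16%. snR75 took 0.848% ± 0.0844 in csl4-ph (n = 3; 0.868% without replicate 1), 3.9% ± 0.0636 in dis3-1, 0.684% ± 0.207 in the rrp6 deletion, 2.28% ± 0.841 in enp1-1 and 2.44% ± 0.262 in srm1-ts (n = 2 each). Its share was thus below control in all 5 mutants, although its level in dis3-1 overlapped control, and in the rrp6 deletion 4 other members rose while snR75 did not pass the test. snR74 took 1.12% ± 0.558 in csl4-ph (1.45% without replicate 1). In srm1-ts snR76 took 77.2% ± 4.67 (n = 2). In oligo d(T) RNA snR76 took 57.3% ± 7.66 in control (n = 3) and 20.6% ± 1.82 in csl4-ph (n = 3), where snR77 took 34.5% ± 1.1 and snR72 27.4% ± 2.15. In enp1-1 snR77 took 31.6%, snR73 24%, snR76 23.5% and snR72 13.6%. The oligo d(T) shares rest on 187 counts in control, 953 in csl4-ph, 2670 in enp1-1 and 43 in srm1-ts.

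**Figure D4:**
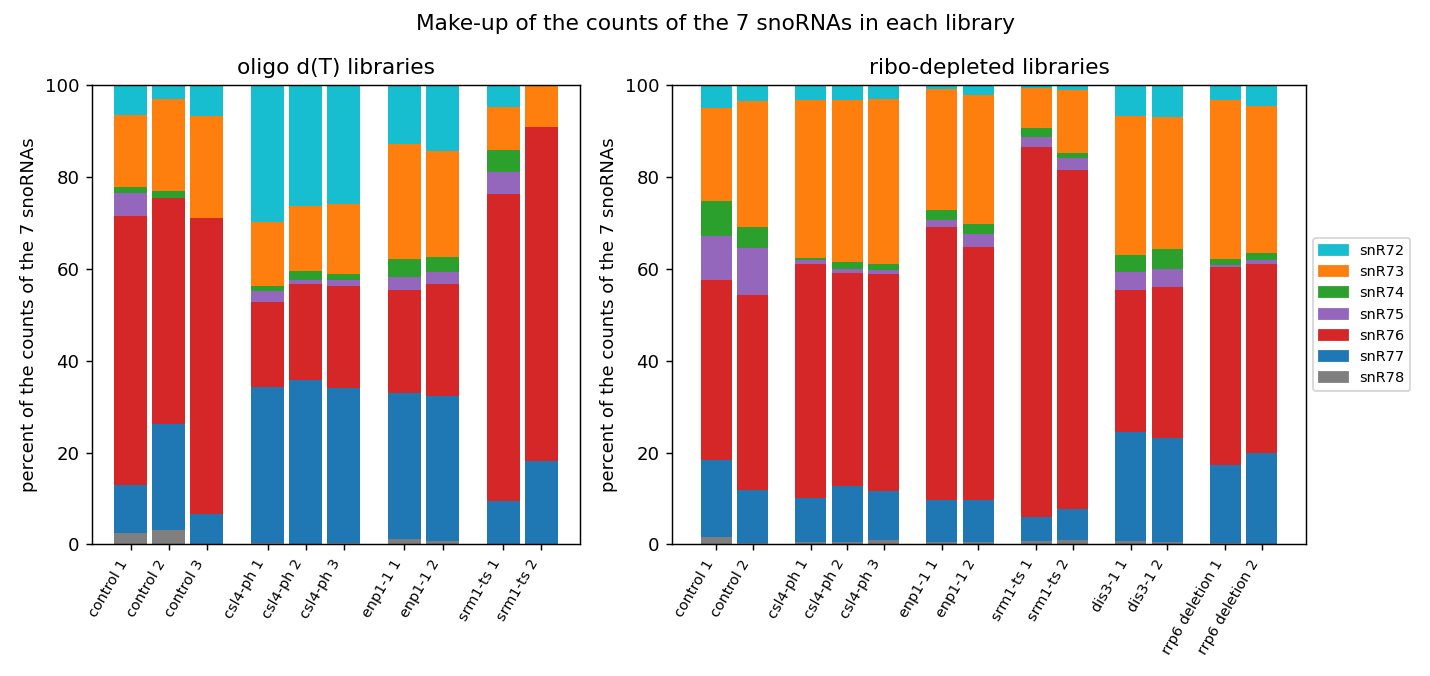
Share of each snoRNA in the summed counts of the 7, in percent, for each library; each bar is 1 library and sums to 100. In the bars, snR75 and snR74 shrink in ribo-depleted csl4-ph RNA, and snR72 and snR77 widen in oligo d(T) csl4-ph RNA.

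Other snoRNAs, grouped by how their genes are arranged, are described beside the row by counts and medians. Of all features, 30.5% were higher and 35.6% lower in the rrp6 deletion, and 30% and 38.8% in dis3-1. In ribo-depleted RNA the shares were 35.4% and 41.1% in csl4-ph, 34.8% and 37% in enp1-1 and 39.4% and 37% in srm1-ts. Counts near these shares are no result about a class. In the rrp6 deletion the 6 tested members had a median log2 fold change of 3.28. The median was 1.39 for the 5 tested of 10 other polycistronic box C/D snoRNAs (3 higher, 1 lower), 0.82 for the 15 tested of 23 monocistronic ones (10 higher, none lower), 0.21 for the 29 box H/ACA snoRNAs (11 higher, 6 lower) and -0.01 for all features. Of the 7 intronic box C/D snoRNAs 2 were tested, and both were higher (median 2.69). In dis3-1 the medians were 1.20 for the row, 0.06 for the other polycistronic, -0.07 for the monocistronic (3 higher, 5 lower) and -0.47 for the H/ACA snoRNAs (4 higher, 16 lower). In ribo-depleted csl4-ph RNA they were -0.31, -0.77 (1 higher, 3 lower), 0.00 (2 higher, 5 lower) and -0.73 (7 higher, 20 lower), and without csl4-ph replicate 1 they were -0.30, -0.87, -0.03 and -0.80. In ribo-depleted enp1-1 and srm1-ts RNA the H/ACA snoRNAs had medians of -1.20 (22 lower) and -0.32 (16 lower), and the row -0.34 and -1.39.

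In oligo d(T) csl4-ph RNA all 24 tested of the 29 H/ACA snoRNAs rose (median 3.55). Of the 23 monocistronic box C/D snoRNAs 9 were tested, and 7 of these rose (2.83). Of the 24, 6 were listed at 0 counts in control, so they passed the filter on low counts only through other groups. These counts are therefore partly set by the filter. Of all features in oligo d(T) RNA, 38.2% were higher and 39.6% lower in csl4-ph, and 37.8% and 38.6% in enp1-1. The row had a median of 1.52, and the other polycistronic snoRNAs -0.87 (1 higher, 2 lower of 5). In oligo d(T) enp1-1 RNA the order differed, with medians of 3.78 for the row, 1.82 for the other polycistronic (2 higher), 0.83 for the monocistronic (5 higher) and 0.86 for the H/ACA snoRNAs (13 higher, 3 lower). Of the row, snR75 and snR74 passed the filter on low counts only through enp1-1, and snR77 and snR72 only through csl4-ph and enp1-1. The medians of the row in both strains, and its place among the classes, are thus partly set by the filter. In oligo d(T) srm1-ts RNA the medians were -2.58, -1.86, -1.88 and -0.57. Single examples in csl4-ph were snR10, an H/ACA guide, at 269.5 ± 25.5 CPM against 23.48 ± 0.935 CPM in control (n = 3 each, log2 fold change 3.52, adjusted p = 4.8e-09), and snR4, monocistronic, at 229 ± 13.8 against 15.12 ± 1.75 CPM (3.92, adjusted p = 1.94e-09). The polycistronic partners snR128 and snR190 parted, snR128 rising to 63.96 ± 6.93 from 3.403 ± 0.631 CPM (4.23, adjusted p = 4.71e-08). snR190 stood at 0 counts against 39, which is 22.1-fold lower with 3 counts taken for the 0 and the 39 taken as exact. snR70, of another polycistron, stood at 0 against 43 counts (24.4-fold lower in the same way). Most of these snoRNAs overlap another feature of the files, 9 of the 10 other polycistronic, 21 of the 23 monocistronic, 7 of the 7 intronic and 26 of the 29 H/ACA, with which estimated counts can be divided, so their single values are uncertain, listed zeros among them. Of the row only snR73 does.

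**Figure D5:**
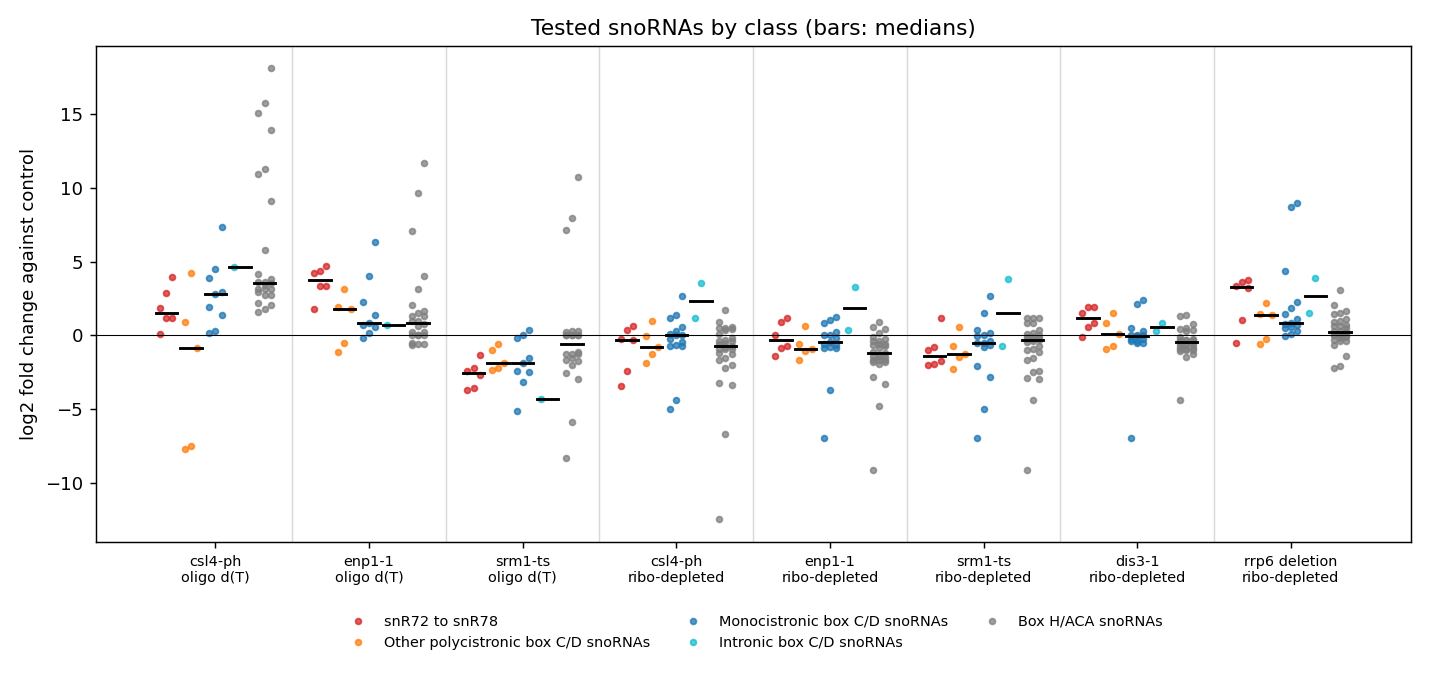
Log2 fold change against control of every tested snoRNA by class, for the 8 comparisons with control (points are snoRNAs, bars are class medians). The most extreme values belong to snoRNAs listed at 0 counts in 1 group and are not bounds. The row has the highest class median in oligo d(T) enp1-1 RNA (3.78) and in the rrp6 deletion (3.28). In oligo d(T) RNA snR75 and snR74 passed the filter on low counts only through enp1-1, and snR77 and snR72 only through csl4-ph and enp1-1. The oligo d(T) medians of the row are thus partly set by the filter.

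For the gene lists below, the shares of all features in csl4-ph to read the counts against are 38.2% higher and 39.6% lower in oligo d(T) and 35.4% higher and 41.1% lower in ribo-depleted RNA. Among the protein genes of the pathway, the mRNAs of all 4 core box C/D proteins were lower in csl4-ph in both selections (median log2 fold change -1.02 in oligo d(T) and -1.12 in ribo-depleted RNA). NOP56, which with NOP58 forms the scaffold of the particle, stood at 209.6 ± 5.58 CPM in ribo-depleted csl4-ph (SD, n = 3) against 634.4 ± 19.1 in control (n = 2), a log2 fold change of -1.60 ± 0.0482 (adjusted p = 1.51e-09). NOP58 changed by -1.05 ± 0.0233 and NOP1, the methyltransferase, by -1.13 ± 0.0312. In the rrp6 deletion 3 of the 4 were higher (median 0.25), where 30.5% of all features were higher. In enp1-1, srm1-ts and dis3-1 all 4 were lower in ribo-depleted RNA (medians -0.78, -1.57 and -0.62). Of all features, 37%, 37% and 38.8% were lower in these strains. NOP56 and NOP58 each overlap another open reading frame. Of the 7 assembly factors, 4 were higher and 2 lower in oligo d(T) and 2 higher and 5 lower in ribo-depleted csl4-ph RNA. The AAA+ ATPases RVB1 and RVB2 were lower (-1.10 and -1.12 in ribo-depleted RNA), and BCD1, an early assembly factor, was higher (66.73 ± 1.79 CPM in csl4-ph against 27.87 ± 1.96 in control).

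Of the 4 genes for precursor cleavage and 5′ trimming, 3 were lower in oligo d(T) and 4 in ribo-depleted csl4-ph RNA, and none was higher. XRN1 and RAT1, the 5′ exonucleases, changed by -0.65 ± 0.0286 and -0.96 ± 0.0498 in ribo-depleted RNA, and RAI1, the partner of Rat1, by -0.88 ± 0.0632. RAT1 overlaps non-coding features. RNT1, the endonuclease of this precursor, was named after its values were seen. It stood at 26.44 ± 1.45 CPM in ribo-depleted control (n = 2) and 10.11 ± 0.333 CPM in csl4-ph (n = 3), and at 0 counts in srm1-ts in both selections. RNT1 stood at 11.34 ± 1.65 CPM in control and 14.15 ± 2.14 CPM in csl4-ph in oligo d(T) RNA (n = 3 each). It lies on chromosome XIII (748262 to 749677) within the non-coding feature NUT0613 (748218 to 750047), which stood at 29.03 ± 1.31 CPM in control and 47.39 ± 0.729 CPM in srm1-ts. Both together stood at 55.47 ± 0.138 CPM in control, 47.39 ± 0.729 in srm1-ts and 25.14 ± 1.02 in csl4-ph (ribo-depleted; 25.32 ± 1.37 without csl4-ph replicate 1, n = 2). The sum of both in oligo d(T) RNA was 33.44 ± 3.6 CPM in control and 35.5 ± 1.34 CPM in csl4-ph. The value of RNT1 alone is therefore uncertain.

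The 13 exosome and cofactor genes had 3 higher and 6 lower in oligo d(T) csl4-ph RNA (median -0.45) and 1 higher and 9 lower in ribo-depleted RNA (median -0.73). The oligo d(T) count lower lies near the share over all features. RRP43 and RRP42, ring subunits, fell in ribo-depleted RNA, RRP43 by a log2 fold change of -1.83 ± 0.0356 and RRP42 from 93.42 ± 2.52 CPM in control to 46.62 ± 1.71 CPM, and RRP40, a cap subunit, changed by -0.73 ± 0.0355. RRP45, also of the ring, changed by -1.02 ± 0.041 and RRP4, of the cap, by 0.66 ± 0.0351 in oligo d(T) RNA. In the rrp6 deletion 6 of the 13 were higher and 2 lower (30.5% and 35.6% of all features). Of the 5 TRAMP genes 3 were higher and 2 lower in csl4-ph in each selection. The helicase MTR4 changed by -1.02 ± 0.0201 and the zinc-knuckle gene AIR2 by 0.55 ± 0.0555 in ribo-depleted RNA. TRF5, a poly(A) polymerase of TRAMP, was listed 4.33 higher on the log2 scale, but shares its place with NUT1330 and another non-coding feature, so this value is uncertain. Of the 7 termination and poly(A) genes 2 were higher and 4 lower in oligo d(T) and 1 higher and 4 lower in ribo-depleted RNA, among them PAB1, the poly(A)-binding protein, at -1.03 ± 0.0296, LHP1, the yeast La protein, at -1.53 ± 0.0325, and NAB2, a nuclear poly(A)-binding protein, at 1.27 ± 0.0323. Without csl4-ph replicate 1 the counts higher and lower of these 6 lists in ribo-depleted csl4-ph RNA were the same, with medians of -1.14 (core proteins), -0.50 (assembly), -0.90 (cleavage), -0.73 (exosome), 0.35 (TRAMP) and -0.25 (termination), and 40 of 42 named list genes and neighbours had the same call, none moving by more than 0.20 on the log2 scale. The 2 others were snR18, no longer higher, and snR13, then lower.

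The 3′ tag libraries, primed from poly(A), held almost none of the row. Over 3 libraries each, the 7 members had 4 counts in control with empty vector, 2 with Pab1GFP, 6 and 14 in csl4-ph, and 27 and 18 in enp1-1. None of the 7 had enough counts for the test. Of the 6369 features tested, 32.2% were higher and 15.4% lower in csl4-ph, and 25% and 13.9% in enp1-1, against control with empty vector. Between vectors the shares higher and lower were 0.22% and 0.173% in control, 0.236% and 0.173% in csl4-ph, and 1.71% and 4.95% in enp1-1. With no filter on low counts edgeR called 0 of the 7 in all 5 comparisons, with 1 member at an unadjusted p under 0.05 in enp1-1 against control and 0 in the other 4, and DESeq2 called 0 with 0 at an unadjusted p under 0.05. The 27 counts of enp1-1 with empty vector were led by snR77 with 15, against 3 in control (ratio 3.76, interval 1.06 to 20.3), and snR73 with 7, against 0. For snR73 this is 1.75-fold higher with 3 counts taken for the 0 and the 7 taken as exact. A difference between the empty and Pab1GFP vectors was not detectable at this depth.

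Features next to the row are given for comparison. The feature ST2513 (297122 to 297194), just upstream of snR78, fell in ribo-depleted csl4-ph (-1.67 ± 0.354, adjusted p = 0.00184) and did not pass in the rrp6 deletion (-0.21, adjusted p = 0.679), where 4 members rose. In oligo d(T) RNA it held 0.05094 CPM in srm1-ts against 0.5813 CPM in control (adjusted p = 0.00654). SEC59, the dolichol kinase gene upstream (295179 to 296738), changed by 0.54 ± 0.105 in the rrp6 deletion and -0.41 ± 0.0968 in ribo-depleted csl4-ph. BUD22, downstream (298868 to 300427), changed by -0.79 ± 0.0326 in ribo-depleted csl4-ph and by -0.38 ± 0.0359 in dis3-1. YMR013C-A (296471 to 296620) held 0 CPM in control and csl4-ph in both the oligo d(T) and the ribo-depleted libraries. Without csl4-ph replicate 1 ST2513 changed by -1.47, SEC59 by -0.40 and BUD22 by -0.82, and all 3 calls were made again.

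Across the 13 ribo-depleted libraries the Pearson correlation of log2(CPM + 1) between members ran from 0.17 for snR76 and snR75 to 0.98 for snR77 and snR72, and across the 10 oligo d(T) libraries from 0.48 for snR78 and snR72 to 0.97 for snR77 and snR72. These are descriptions over libraries that fall into strains. The features whose level was most like the mean of the 7, among 7202 with a mean of at least 10 CPM in oligo d(T) RNA, were OXP1 and YDR274C (both 0.992), NIP100 and TAT2 (0.991) and NUT0531 (0.99). Among 7311 such features in ribo-depleted RNA they were YJR056C (0.983), TRZ1 and PHO12 (0.936) and MDM20 and RPC82 (0.932). Without csl4-ph replicate 1 the correlation between members ran from 0.12 to 0.99 in ribo-depleted RNA, and 3 of these 5 features remained (YJR056C, PHO12 and RPC82).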

How the data were processed

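RNA of 41 yeast libraries was measured: 10 enriched on oligo d(T), 13 depleted of ribosomal RNA (both with a stranded kit, paired reads of 50 bases) and 18 3′ tag libraries (single reads of 90 bases), per the labels' protocols. The authors deposited 3 tables of estimated counts per feature, made with Salmon 0.12.0 after Trimmomatic 0.39 (tags 0.38) on sacCer3 (R64), per the submitters' processing notes. These name DESeq2 1.26.0 and bedtools too, whose output was not used. Whether counting used strand is not given in the sources used here.

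Estimated counts were rounded, features were kept by edgeR's filterByExpr (minimum count of 10), libraries were scaled by TMM, and all groups of a table were fitted together with edgeR 4.0.16 (quasi-likelihood F-test, R 4.3.3), with Benjamini-Hochberg adjustment over all features tested and a threshold of 0.05. This left 10464 features in oligo d(T), 10564 in ribo-depleted, 6369 in tag RNA and 10790 in the joint fit of both selections that tests interactions, with 21 comparisons in all. CPM are edgeR's, on TMM-scaled library sizes. Depth was 1458382 to 33251600 counts per library. The precision this gives is set by the members' few counts, and ratios with 1 to 3 counts in a group carry exact 95% intervals. Code was tested on simulated counts.

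The 7 members, the gene lists (box C/D proteins, assembly, precursor cleavage, exosome, TRAMP, termination, and 4 snoRNA classes) and the tests were chosen with earlier results of these data known. Genes named were the members, features within 1000 bases, up to 3 genes per list with the smallest adjusted p in csl4-ph against control in either selection, the mutated genes and marker genes, and the 5 features per selection most like the members' mean. Alternatives were median-ratio scaling, scaling on open reading frames, no filter, DESeq2 1.42.0, a replicate block, fits of the compared groups alone, and leaving out each library. No sample was left out.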

Additional observations from a re-analysis of the deposited data

Results flagged for a closer look

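The fold change against control differed between oligo d(T) and ribo-depleted RNA for 14 pairs of a snoRNA and a strain, by the interaction in edgeR's quasi-likelihood fit of both selections (Benjamini-Hochberg adjusted p under 0.05). In csl4-ph the log2 fold change in oligo d(T) RNA exceeded that in ribo-depleted RNA by 3.19 for snR77, 4.54 for snR75, 4.23 for snR74 and 4.19 for snR72. In enp1-1 the excess was 4.15 for snR77, 0.56 for snR76, 4.70 for snR75, 5.50 for snR74, 2.46 for snR73 and 5.05 for snR72. In srm1-ts the same difference was -4.25 for snR78, -1.75 for snR77, -3.69 for snR76 and -2.92 for snR73. In srm1-ts snR76 moved in opposite directions, with libraries above control in ribo-depleted RNA and below control in oligo d(T) RNA. The values for snR75 and snR74 rest on 4 and 2 counts in oligo d(T) control RNA, and that of snR78 on 0 counts in oligo d(T) srm1-ts RNA, where a fitted value is no bound. The srm1-ts values of snR77 and snR73 rest on 6 and 4 counts in oligo d(T) srm1-ts RNA. No group held 4 or more libraries, so none was examined for a library that stands apart.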

How the results depend on the processing

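Of 1152 recomputed values of members, 1087 kept direction and side of the threshold, 43 lost their call, 8 gained one and 14 changed sign. Of 246 recomputed counts of members called, 236 stayed within 1.5 times. The count in oligo d(T) csl4-ph against enp1-1 fell from 4 to 2 under the replicate block and ran from 2 to 4 without single libraries. That in oligo d(T) srm1-ts against control fell from 4 to 2 with the compared groups fitted alone, where 2 members passed the filter. The srm1-ts interaction count fell from 4 to 2 in the same setting and ran from 2 to 4 without single libraries. The causes of the other changes were not tested. Every value that changed sign lacked a call in the fit reported. For snR75 in dis3-1 the values were 0.01 (median ratio), 0.30 (open reading frames), 0.00 (DESeq2) and 0.06 (compared groups alone). In ribo-depleted csl4-ph snR77 and snR72 turned to 0.16 and 0.21 on open reading frames. Without single libraries they ran from -0.65 to 0.09 and from -0.58 to 0.13, and snR77 in enp1-1 from -0.28 to 0.45, each end set by a control library. snR75 in oligo d(T) srm1-ts ran from -4.22 to 2.08, and its interaction from -2.47 to 3.73 and to 0.30 without srm1-ts replicate 2. The snR74 srm1-ts interaction ran from -1.42 to 1.34, and was -0.01 without ribo-depleted control replicate 1. Scaling on open reading frames moved the median of all features by 0.325 in csl4-ph, 0.276 in enp1-1 and 0.14 in srm1-ts (oligo d(T)), and by 0.442, 0.26, 0.329, 0.332 and 0.229 in ribo-depleted csl4-ph, enp1-1, srm1-ts, dis3-1 and the rrp6 deletion.

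Replicate numbers gave no clear pairing of the libraries. The correlation of deviations between same-numbered libraries ran from -0.119 to 0.041 over 13 oligo d(T) pairs and from -0.032 to 0.093 over 30 ribo-depleted pairs. Over 45 tag pairs it ran from -0.242 to 0.322, with 5 above 0.1. Where both groups held 2 libraries, both replicate numbers give the same value, so the pairs are not all independent. The replicate block also moved the count from 5 to 4 in csl4-ph against srm1-ts, from 4 to 3 in dis3-1 against the rrp6 deletion and from 4 to 3 in the srm1-ts interaction, and changed no other count. It ended the calls of snR77 and snR74 in csl4-ph against enp1-1 (adjusted p = 0.136 and 0.122), of snR74 in csl4-ph against srm1-ts (0.0654), of snR72 in dis3-1 against the rrp6 deletion (0.0638) and of snR78 in the srm1-ts interaction (0.114). Depth limits snR78 in both selections, snR75 and snR74 in oligo d(T) RNA, and all 7 in tag RNA.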
